A study of Mus musculus with 11 samples.

Results

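Cytoplasmic ribosomal protein genes encode the proteins that, together with ribosomal RNA, make up the large (60S) and small (40S) subunits of the cytosolic ribosome. They were chosen by symbol only: Rpl or Rps followed by a number with an optional letter or l suffix, plus Rplp0, Rplp1, Rplp2 and Rpsa. The rule found 82 of the 24421 entries in the count table, 50 of the large subunit (Rpl and Rplp) and 32 of the small subunit (Rps and Rpsa). Pseudogene symbols, Rps3a1, Fau, Rpl7l1 and Rpl22l1 fell outside it.

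The 11 RNA-seq libraries were made from whole main olfactory epithelium (MOE), the nasal tissue that holds the olfactory sensory neurons (OSNs), of C57BL/6 mice labelled as postnatal day 1 to 2. The Taar2 to Taar9 cluster, which encodes trace amine-associated receptors of OSNs, was intact in wild type (n = 3), deleted on 1 chromosome in heterozygous (n = 4) and deleted on both in homozygous (n = 4) mice. The study's methods describe older mice and a mixed 129 background for this line, and which description applies was not settled. Nothing states whether the libraries came from separate litters, so p-values measure only the spread between these libraries.

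Each ribosome carries a single copy of nearly all of these proteins, and a cell therefore needs them in near-equal amounts. Many of their mRNAs begin with a 5′ terminal oligopyrimidine (5′ TOP) tract, a C at the cap followed by further C or T bases, through which translation responds to the mTOR pathway. The genes are also known for their many processed pseudogenes, copies of the mRNA pasted back into the genome, which make short reads from the coding sequence hard to place.

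Annotated starts were examined for this tract because it is the sequence feature the family is best known for. Of the 82 genes, 61 had a start in the RefSeq promoter table (GRCm38.p6). The annotated start itself was a C followed by at least 4 C or T bases in 13 of these 61 genes (21.3%), against 3.01% of all 27025 genes in that table. Within 10 bases of the start the same letters occurred in 62.3% of the ribosomal protein genes and in 34.4% of all genes. None of the 68 mitochondrial ribosomal protein genes with an entry had the tract at the start (0%), and 45.6% had it within 10 bases. In the sequences shown here, 10 bases before the start are followed by 20 from the start on, and capitals mark the run of C and T that begins at the start.
Rps6, chr4:86857348-86857377, minus strand: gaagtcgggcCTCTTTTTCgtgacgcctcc
Rpl15, chr14:18270967-18270996, minus strand: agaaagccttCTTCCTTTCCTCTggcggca
Rps18, chr17:33955646-33955675, minus strand: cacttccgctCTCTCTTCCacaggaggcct
Rpl38, chr11:114668570-114668599, plus strand: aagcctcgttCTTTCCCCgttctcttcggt
Rplp2, chr7:141447641-141447670, plus strand: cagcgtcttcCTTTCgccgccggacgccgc
The longest run was that of Rpl15, with 13 bases, and the shortest 5 bases. Rpl9 and Rplp0, which the results below also turn on, had no such run at or within 10 bases of the listed start, which says only that these letters were not in that window.
Rpl9, chr5:65391412-65391441, minus strand: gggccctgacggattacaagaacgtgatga
Rplp0, chr5:115559457-115559486, plus strand: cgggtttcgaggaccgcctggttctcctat

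Libraries held 9239866 to 14632525 counts, and 19093 to 19828 genes had at least 1 count. Summed counts of the olfactory Taar genes were 87 to 119 in wild type, 31 to 96 in heterozygous and 1 to 3 in homozygous libraries. These sums set the homozygous libraries apart, as labelled. Heterozygous replicates 1 and 2, at 96 and 89 counts, lay within the wild type range, so the sums cannot tell these 2 labels apart. The summed level of 7 mature OSN markers, among them Omp, Cnga2 and Gnal, was 1218 to 2183 CPM (the count relative to the TMM-scaled total of the library), so the labelled tissue was seen in every library. In homozygous replicate 2, 25.8% of the counts belonged to Rn45s, the precursor of ribosomal RNA, against 0.0848% to 0.786% in the other 10 libraries. On the first principal component of all other tested genes, which carried 41.6% of their variance, 6 libraries (set 1) lay apart from 5 (set 2). Set 2 held wild type replicate 3, heterozygous replicates 1 and 2 and homozygous replicates 3 and 4, so each set held all 3 genotypes.

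The 82 genes together took 0.715% to 1.18% of the counts of a library. Wild type replicates 1 to 3 gave 0.894%, 0.760% and 1.03%. The 4 heterozygous libraries, in order of their number, gave 1.11%, 0.999%, 0.813% and 1.09%, and the 4 homozygous libraries gave 0.911%, 0.715%, 1.18% and 1.14%. The lowest share was that of the library rich in Rn45s, and when Rn45s was left out of the total that library stood at 0.964%. The 4 libraries with the highest share were, with 1 exception (heterozygous replicate 4), of set 2. The genotypes overlapped widely.

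**Figure D1:**
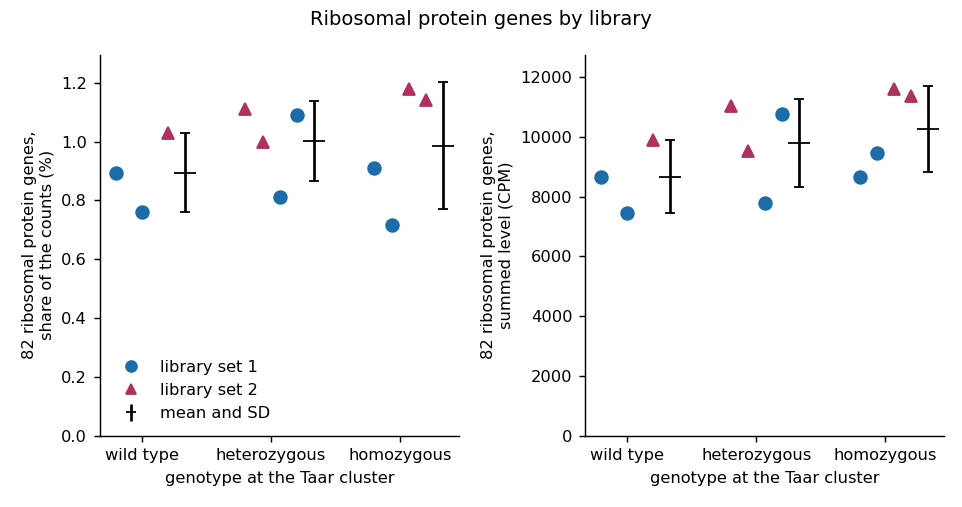
Share of the counts (left, %) and summed TMM-scaled level (right, CPM) of the 82 ribosomal protein genes in each library, by genotype. Circles are libraries of set 1, triangles are libraries of set 2, and bars give the mean and SD. The genotypes overlap, and within each genotype the set 2 libraries lie high, with heterozygous replicate 4 the only set 1 library among them.

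Levels per length differed greatly between genes whose products are needed in near-equal amounts. As RPKM (CPM per kilobase of 1 spliced transcript of the GENCODE M21 annotation, mean over 11 libraries), the highest included Rpl41 (1268), Rplp1 (1240.1), Rpl8 (833) and Rps15 (691). Rplp1 encodes a protein of the P-stalk, which recruits the translational GTPases. The lowest were Rpl39l (1.03), Rpl30 (0.927), Rpl3l (0.469), Rpl26 (0.0164) and Rpl10l (0). Rpl39l, Rpl3l and Rpl10l are paralogs known mainly from testis or from muscle, but Rpl30 and Rpl26 are single core proteins of the large subunit. Rpl30 had 68 counts over all 11 libraries and Rpl26 had 1, and 3 members (Rpl26, Rpl30 and Rpl10l) had too few counts to be tested. In all, 30 of the 82 members exceeded 100 RPKM and 24 were under 10 RPKM.

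Most of the 24 low members were genes whose coding sequence also occurs elsewhere. For each gene the 51-base stretches of its spliced transcript were looked up in the transcripts of every other annotated gene. In 28 members every stretch inside the coding sequence was shared, and their median level was 10.3 RPKM. Of these 13 were under 10 RPKM, and 3, among them Rpl41 and Rpl21, exceeded 100 RPKM. In 29 members from 80% up to under 100% was shared, with a median of 56.9 RPKM and 7 genes under 10 RPKM. In the remaining 25 members under 80% was shared, the median was 243 RPKM, 20 of them exceeded 100 RPKM and 4 (Rpl34, Rpl39l, Rpl3l and Rpl10l) were under 10 RPKM. The last class held 68.9% of all member counts, and the first 10.2%. Across the 82 genes the level and the shared percentage had a Spearman's rho of -0.44, which is a description over genes that share libraries and not independent replicates. Per kilobase of coding sequence the rho was -0.45. A transcript of another gene at 95% identity or more over 80% of the coding sequence was found for 75 of the 82 members (91.5%), against 14 of 77 mitochondrial ribosomal protein genes (18.2%). How the authors' counting treated reads with several positions was not stated, and its part in these levels was not tested. Counts of a single member are therefore uncertain wherever such a copy exists.

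**Figure D2:**
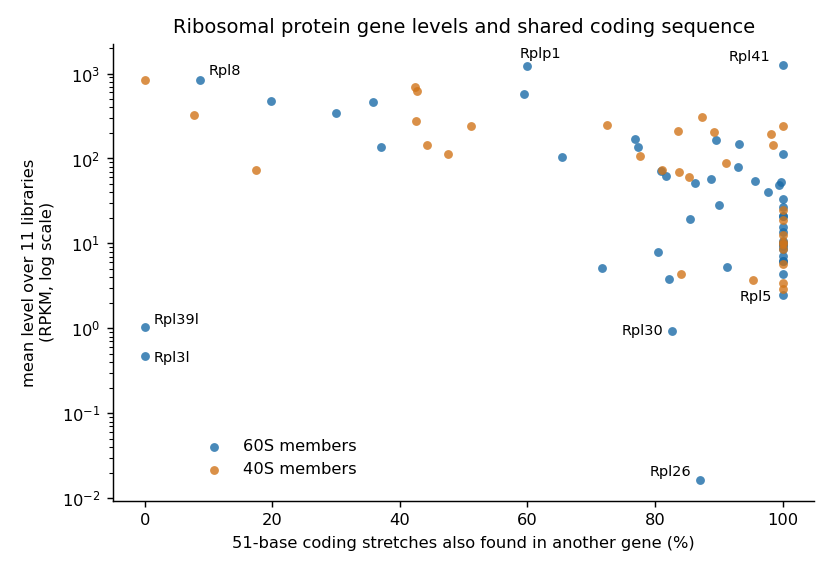
Mean level over 11 libraries (RPKM, log scale) of each ribosomal protein gene against the percentage of its 51-base coding stretches that also occur in a transcript of another gene; 81 of the 82 members are drawn, since Rpl10l is at 0. The genes at 100% lie mostly near or under 34 RPKM, apart from 3 that exceed 100 RPKM, and the drawn genes under 60% lie above 72 RPKM apart from the paralogs Rpl39l and Rpl3l.

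Paralog pairs went both ways with respect to shared coding sequence. Rps27, a zinc-finger protein of the small subunit, stood at 9.71 RPKM with 100% of its coding stretches shared, whereas its paralog Rps27l stood at 112 RPKM with 47.5% shared. Rpl36a was at 4.32 RPKM and its paralog Rpl36al at 71.0, and 100% and 81.0% of their coding stretches were shared. In the other pairs the paralog was lower although less of its coding sequence was shared. Rps4x was at 205 RPKM (89.3% shared) and Rps4l at 72.5 (17.5%). Rpl3 was at 54.5 RPKM (95.6%) and Rpl3l, its paralog of striated muscle, at 0.469 (0%). Rpl39 was at 19.3 RPKM (85.4%) and Rpl39l at 1.03 (0%). Rpl10 was at 20.9 RPKM (100%) and Rpl10l (11.8%) at 0 with 0 counts in every library.

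Some copies carried more counts than the gene. Among the 9 entries with a pseudogene or retrocopy symbol, Rpl14-ps1 had 51220 counts over all libraries and Rpl37rt 39040, together 95.1% of the 94913 counts of these entries. Rpl37 itself had 421 counts, and Rpl14 had 17808. The remaining 7 entries had 0 to 3134 counts, and Rps27rt, the listed copy of Rps27, had 0.

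The genes with set roles also spanned this range. Of the P-stalk genes, Rplp0 stood at 581 RPKM, Rplp1 at 1240.1 and Rplp2 at 105. Rpsa, the protein first described as a laminin receptor, stood at 145. The genes of the 5S particle, which in its free form holds back the p53 ligase Mdm2, were low, with Rpl5 at 2.45 and Rpl11 at 7.19 RPKM. Rps6, the substrate of the S6 kinases, stood at 12.7 and the ubiquitin fusion gene Rps27a at 10.5 RPKM. Both of the latter, like Rpl5 and Rpl11, had every coding stretch shared.

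Removal of the Taar cluster was examined first as homozygous against wild type. No ribosomal protein gene passed edgeR's quasi-likelihood test after Benjamini-Hochberg adjustment over 16574 genes (0 of 79 tested members, against 0% of all genes). DESeq2 also called 0 members, and 8 of 21582 genes in all. At an unadjusted p under 0.05, 3 of 79 members were higher and 0 lower, against 1.81% higher and 1.21% lower among all tested genes. DESeq2 put 4 members under the same unadjusted threshold, with 2.93% of all genes. The median log2 fold change of the members was 0.15, against 0.015 for all tested genes, and 63 of the 79 were positive. The size of this shift hung on single libraries. Without wild type replicate 3 the median was 0.44 and 15 members had an unadjusted p under 0.05 (4.25% of all genes), and without homozygous replicate 1 these were 0.26 and 8 (4.36% of all genes). The share of all genes was 1.92% to 3.67% when any other library was left out. The median was 0.041 without wild type replicate 2, 0.089 without wild type replicate 1 and 0.099 without homozygous replicate 3, with 0 members each. With homozygous replicate 4 left out it was 0.089 with 1 member, and 1 member was under that threshold when homozygous replicate 2 or heterozygous replicate 2 or 4 was left out.

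The 3 members with the lowest p among those higher in homozygous libraries were Rpl6, Rps20 and Rpl39l. Rpl6, a large subunit protein (chr5:121204481-121209241, mm10), was at 92.8, 80.3 and 90.0 CPM in wild type and at 90.8, 112, 132 and 129 CPM in homozygous replicates 1 to 4. Homozygous replicate 1 lay within the wild type range and the others above it, and edgeR gave 0.41 as log2 fold change with an SE of 0.18 (adjusted p = 0.996, unadjusted p = 0.0443). Rps20, a small subunit protein (chr4:3831334-3835665, mm10), was at 180, 146 and 201 CPM in wild type and at 168, 227, 341 and 341 CPM in homozygous libraries. Its highest values were those of the set 2 libraries, its groups overlapped, and edgeR gave 0.62 on the log2 scale with an SE of 0.28 (adjusted p = 0.996, unadjusted p = 0.0460). Rpl39l had 0, 3 and 4 counts in wild type and 10, 6, 16 and 4 counts in homozygous libraries. From these few counts edgeR fitted 1.92 on the log2 scale with an SE of 0.86 (adjusted p = 0.996, unadjusted p = 0.0462), a value that depends on the prior count. The 3 lowest p among members with a negative fold change were 0.290 for Rpl39 (log2 fold change -0.50), 0.299 for Rps6 (-0.29) and 0.357 for Rpl35 (-0.26) before adjustment in edgeR.

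The replicate numbers of wild type and homozygous libraries fell in the same library sets, and deviations of same-numbered libraries correlated in each of the 3 pairs. Differently numbered libraries of the same set correlated too. Wild type replicate 3 with homozygous replicate 4 gave 0.47, and wild type replicates 1 and 2 with homozygous replicates 2 and 1 gave 0.36 and 0.24. Replicate number and library set therefore cannot be told apart here. With a replicate block over all 11 libraries, 1 member had an unadjusted p under 0.05 (1.73% of all genes) and 0 passed the adjustment in edgeR, with a median log2 fold change of 0.14. With the block in a fit of these 2 genotypes the count was 2 of 77 members tested and the median was 0.086, with 6.31% of all genes under the threshold. When library set was added to the model the count was 5 of 79 and the median 0.12, with 6.83% of all genes under that threshold. The summed level was 8665 ± 1219 CPM (SD, n = 3) in wild type and 10263 ± 1439 CPM (SD, n = 4) in homozygous libraries, 18.4% higher. Within set 1 the difference was 12.4% and within set 2, which held 1 wild type library, 16.0%. It was 10.7% without wild type replicate 2 and at most 27.4%, when wild type replicate 3 was dropped.

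In heterozygous against wild type libraries, 0 of 79 members passed the adjusted threshold (0% of all genes) in edgeR, and 0 did in DESeq2. No member had an unadjusted p under 0.05 in either tool, while 1.75% of all tested genes were higher and 0.495% lower at that threshold in edgeR. DESeq2 called 3 of 21582 genes after adjustment and put 2.28% under the unadjusted threshold. The median log2 fold change of the members was 0.13, against 0.0018 for all genes, with 66 of 79 positive. Both comparisons with wild type share its 3 libraries. Without wild type replicate 3 the median was 0.39 with 9 members under the unadjusted threshold (3.66% of all genes), and without heterozygous replicate 1 it was 0.073 with 1 member (1.73% of all genes). It was 0.019 without wild type replicate 2, 0.065 without wild type replicate 1 and 0.24 without heterozygous replicate 3, with 0 members each (2.18%, 1.36% and 2.51% of all genes). With the replicate block over all 11 libraries the count was 1 (1.44% of all genes). The summed level was 9788 ± 1480.0 CPM (SD, n = 4) in heterozygous libraries, 13.0% above wild type (15.3% within set 1 and 4.11% within set 2). The difference was 5.55% without wild type replicate 2 and 8.14% without heterozygous replicate 1, and it was 21.5% without wild type replicate 3 and 20.6% without heterozygous replicate 3.

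The member with the lowest unadjusted p in that comparison was Rpl39l (log2 fold change 1.71, SE 0.87, unadjusted p = 0.0733 and adjusted p = 0.99997 in edgeR). It had 0, 3 and 4 counts in wild type and 2, 17, 9 and 3 counts in heterozygous replicates 1 to 4, and these groups overlapped. Among negative values the lowest p were those of Rps6 (log2 fold change -0.25, unadjusted p = 0.367), Rpl36a (-0.24, unadjusted p = 0.598) and Rps27 (-0.11, unadjusted p = 0.777), also with an adjusted p = 0.99997 in edgeR.

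Homozygous against heterozygous libraries gave the fewest unadjusted calls of the 3 comparisons over all genes. In edgeR 0 of 79 members passed the adjusted threshold (0% of all genes) and 0 had an unadjusted p under 0.05, where 0.32% of all genes were higher and 0.241% lower. DESeq2 gave 0 and 0 members, with 2 genes in all after adjustment and 0.556% of all genes before it. The median log2 fold change was 0.024, against 0.0062 for all genes, with 46 members positive and 33 negative. Leaving out single libraries turned its sign, to -0.059 without heterozygous replicate 3, -0.032 without homozygous replicate 4 and -0.017 without homozygous replicate 3. The highest median was 0.13, without homozygous replicate 1, where 2 members were under the unadjusted threshold (1.07% of all genes), and 1 member was without heterozygous replicate 4 (0.842% of all genes). The lowest unadjusted p in edgeR was that of Rpl6 (log2 fold change 0.26, SE 0.17, unadjusted p = 0.140), followed by Rps29 (0.53, SE 0.34, unadjusted p = 0.147) and Rpl7a (0.19, SE 0.15, unadjusted p = 0.229), each with an adjusted p = 0.999996. The lowest p among negative values were those of Rpl39 (log2 fold change -0.57, SE 0.42, unadjusted p = 0.200), Rps4x (-0.12, unadjusted p = 0.371) and Rps27a (-0.31, unadjusted p = 0.397), each with an adjusted p = 0.999996 in edgeR. The summed level was 4.85% higher in homozygous libraries, being 2.47% lower within set 1 (-2.47%) and 11.5% higher within set 2. It was -1.81% without heterozygous replicate 3, 0.326% and 1.15% without homozygous replicate 3 or 4, and otherwise 3.99% to 10.4% with 1 library left out. Their share of the counts went the other way, at 0.986% in homozygous and 1.003% in heterozygous libraries (a difference of -1.62%, being -14.5% within set 1 and 9.98% within set 2), and turned to 4.57% higher when Rn45s was left out. This share difference ranged from -0.080 to 0.074 percentage points when single libraries were left out.

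**Figure D3:**
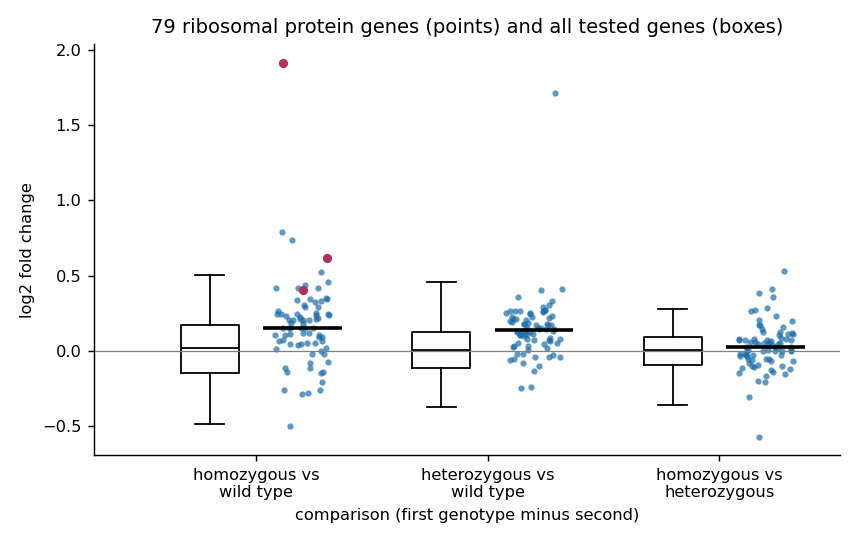
Log2 fold changes of the 79 tested ribosomal protein genes (points, thick line at their median) in the 3 genotype comparisons, beside boxes for all 16574 tested genes (line at the median, box from the 25th to the 75th percentile, whiskers from the 5th to the 95th). The larger red points are the 3 members with an unadjusted p under 0.05, all in homozygous against wild type, and the member medians are 0.15, 0.13 and 0.024.

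**Figure D4:**
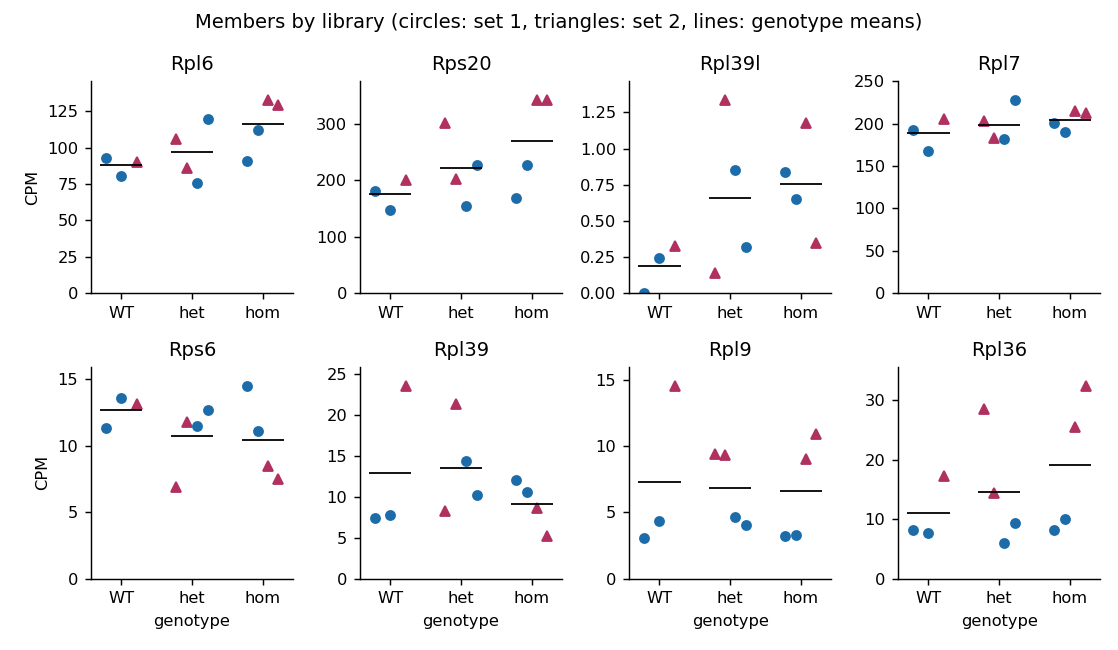
Level (CPM) of 8 members in each library by genotype (WT, wild type; het, heterozygous; hom, homozygous), with circles for set 1, triangles for set 2 and lines at genotype means. Rpl6, Rps20 and Rpl39l have the lowest p in homozygous against wild type, Rpl7 the narrowest spread over all libraries; in Rpl9 and Rpl36 all triangles lie above all circles, and in Rps6 and Rpl39 they do not.

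Most members were higher in the set 2 libraries. The sets were drawn from genes other than the members, but from the same libraries, so the following is a description with no test. The first principal component of the members alone carried 64.5% of their variance. All 5 set 2 libraries lay above all 6 set 1 libraries in 30 of 79 members (38%, against 16% of all tested genes) and below them in 0 (0%, against 10.9%). Without homozygous replicate 2, the library rich in Rn45s, the first count was 34 (43%, against 17.1% of all tested genes). The median difference of set 2 minus set 1 was 0.45 on the log2 scale, with 71 members higher and 8 lower, against -0.0050 for all tested genes. Both subunits took part, with 20 of 47 large subunit and 10 of 32 small subunit members not overlapping.

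The differences were widest in Rpl9 (set 2 minus set 1, 1.45 on the log2 scale), Rpl36 (1.45), Rps13 (1.29) and Rpl17 (1.24). Rpl9 stood at 3.06, 4.33, 4.64, 4.07, 3.20 and 3.27 CPM in the set 1 libraries, and at 14.5, 9.38, 9.34, 9.02 and 10.9 CPM in the set 2 libraries. Rpl36 stood at 6.07 to 10.03 CPM in set 1 and at 14.4 to 32.4 CPM in set 2. These genes, with Rpl39l, were also the 5 members with the widest SD of log2 CPM over all libraries, from 0.69 in Rpl17 to 0.96 in Rpl39l. The narrowest SD were those of Rpl7 (0.13), Rpl8 (0.14), Rpl22 (0.15), Rps4x (0.16) and Rpl4 (0.16). Rpl7, for example, stayed between 168 and 228 CPM. Members at high level tended to vary less, with a Spearman's rho of -0.62 between level per length and SD across the 79 genes, which share their libraries and differ in depth. Rpl41, the highest per length, had an SD of 0.42, above the member median of 0.34.

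A few members went the other way. Rps6 was lower in set 2 by 0.42 on the log2 scale (-0.42), Rpl23 by 0.41 (-0.41) and Rpl15 by 0.33 (-0.33), though their sets overlapped. The difference was smaller where coding sequence was less shared, with medians of 0.70, 0.40 and 0.32 in the members with all, 80% to under 100%, and under 80% of coding stretches shared. The 13 members with a 5′ TOP tract at the listed start had a median of 0.66, and 6 of them did not overlap, beside 38% of all members and 16% of all genes. Other features are given beside this for description only. Their genes were not left out when the sets were drawn, and set 2 was taken as the side with more Meg3. Meg3, a nuclear long noncoding RNA, stood at 218 to 517 CPM in set 1 and at 1212 to 1528 CPM in set 2. Summed with Malat1 and Neat1 it overlapped, at 1299 to 3099 CPM in set 1 and 2713 to 3583 CPM in set 2. Mature OSN markers (1218 to 2183 and 1229 to 1540 CPM) and immature OSN markers (1225 to 1829 and 1175 to 1338 CPM) overlapped as well. So did sustentacular cell markers, at 846 to 1706 CPM in set 1 and 1198 to 1403 CPM in set 2. Summed respiratory ciliated cell markers (Foxj1, Tekt1, Dnah5) were 386 to 580 CPM in set 1 and 242 to 335 CPM in set 2. Basal cell markers (Krt5, Krt14, Trp63) summed to 71.5 to 156 CPM in set 1 and 52.0 to 73.3 CPM in set 2, and immune markers (Ptprc, C1qa, Csf1r, Lyz2) to 222 to 406 CPM and 193 to 258 CPM. Tested genes other than members with a transcript under 1000 bases had a median difference of 0.17. The part of any of these in the members' difference was not tested, and fewer cells of a type and less RNA per cell cannot be told apart in bulk tissue.

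**Figure D5:**
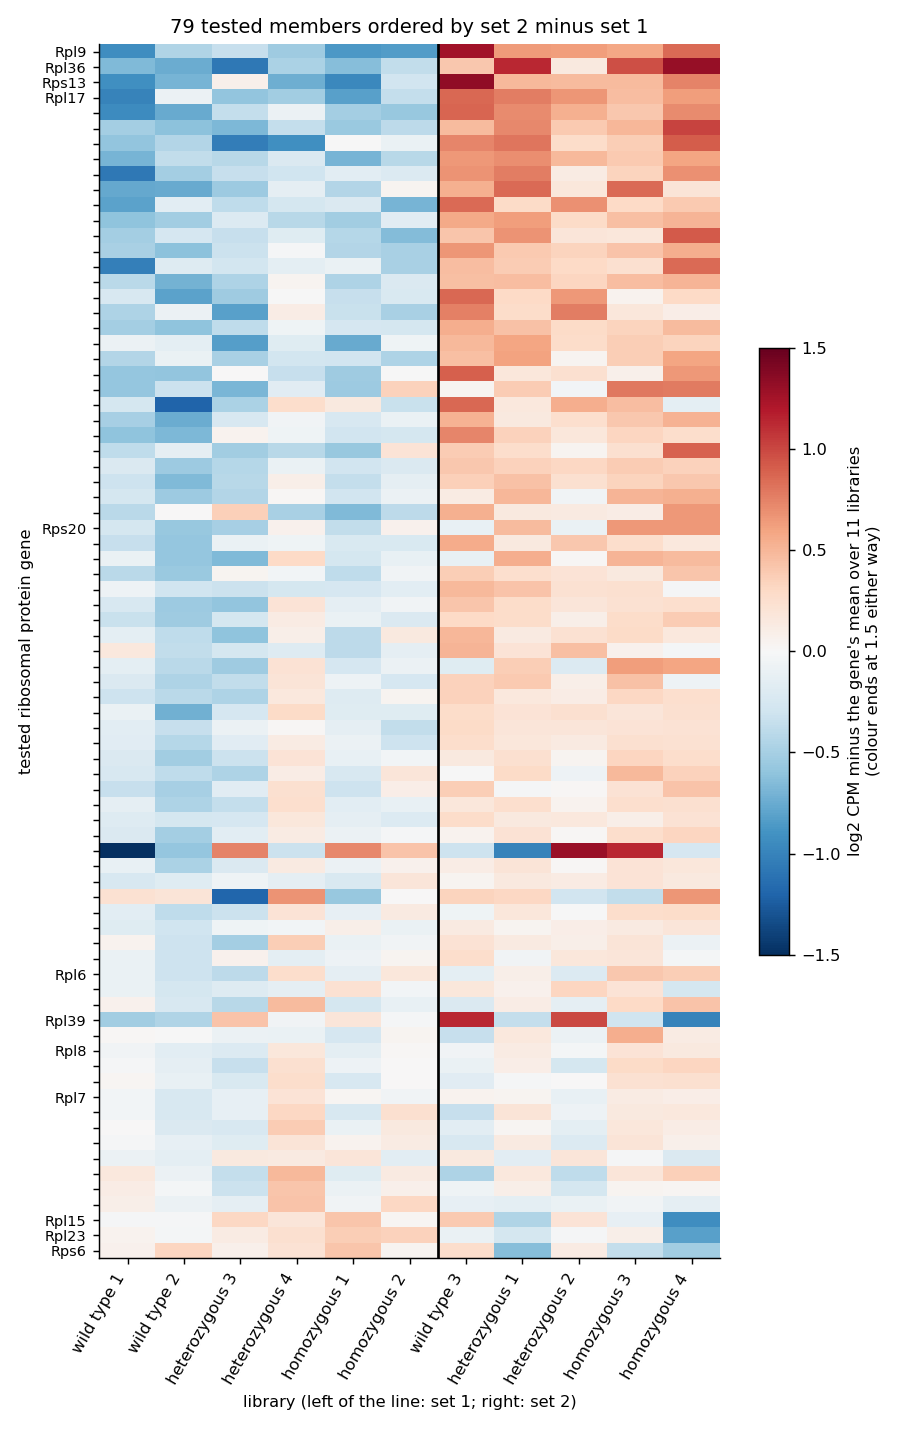
Log2 CPM of each of the 79 tested ribosomal protein genes (rows, ordered by set 2 minus set 1) minus its mean over the 11 libraries (columns, set 1 left and set 2 right of the line), with colours ending at 1.5 either way and 12 genes labelled. Rpl9, Rpl36 and Rps13 at the top are higher in every set 2 library, most rows follow more weakly, and Rpl15, Rpl23 and Rps6 at the foot lie lower on average in set 2, though not in every library.

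Of the rest of the translation pathway 3 lists were examined, and none held a called gene. In each of the 3 comparisons, with the shares of all genes given above, 0 of 77 mitochondrial ribosomal protein genes, 0 of 19 TOP mRNA genes outside the symbol rule (elongation factors, Tpt1, Pabpc1, Fau and others) and 0 of 22 ribosome biogenesis genes had an adjusted or an unadjusted p under 0.05 in edgeR, which for lists of this size is close to those shares. Their median log2 fold changes in homozygous against wild type were 0.033, 0.11 and 0.017. Mitochondrial ribosomal proteins, which serve the separate ribosome of that organelle, lay above in all set 2 libraries in 6 of 77 genes (7.79%) and below in 6 (7.79%), with a median set difference of 0.051. Of the 19 TOP mRNA genes 2 lay above (10.5%) and 1 below (5.26%), with a median set difference of 0.13. Of the 22 biogenesis genes 4 lay above (18.2%, against 16% of all genes) and 8 below (36.4%, against 10.9%), and their summed level was 1591 to 1722 CPM in set 1 and 1385 to 1493 CPM in set 2. Beside the rule, Fau, which encodes a ribosomal protein fused to a ubiquitin-like protein, had a log2 fold change of 0.33 in homozygous against wild type (unadjusted p = 0.407 in edgeR). Those of Rpl7l1 and Rpl22l1 were 0.017 and -0.76 (unadjusted p = 0.944 and 0.189).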

How the data were processed

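Polyadenylated total RNA of whole MOE was sequenced from 3 wild type, 4 heterozygous and 4 homozygous mice, grouped by their labels. The authors trimmed reads (Trimmomatic 0.36), aligned them to mm10 (HISAT2 2.1.0) and deposited raw counts per gene (featureCounts, Subread 1.6.2). The authors also deposited a normalised signal, which is the count divided by 1 size factor per library (largest relative difference 5.22e-08%) and was used for this check only. Annotation, strand setting and multi-mapping treatment are not given in the sources used here.

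The members and lists were chosen with earlier results of these data known. Counts were tested with edgeR 4.0.16 in R 4.3.3: TMM scaling, filterByExpr, a quasi-likelihood fit of 3 genotypes over 11 libraries, and Benjamini-Hochberg adjustment over 16574 genes at 0.05. Standard errors are the log2 fold change divided by the root of F. Log2 CPM used a prior count of 2. DESeq2 1.42.0 was an alternative, beside other scalings, filters, samples, member rules and single libraries left out. The fit was also run on simulated data with 200 changed genes, and the outcome is not reported here. Those data had no library sets, so that run does not cover the differences between sets seen in these libraries. Replicate pairs were not duplicates (lowest chi-square per gene 18.0). Deviations from group means correlated at 0.33, 0.42 and 0.40 in the 3 same-numbered pairs of homozygous and wild type libraries and below 0 in the other 7. Pairs of different numbers ranged from -0.57 to 0.71, so these values do not establish pairing. The replicate block is given as an alternative only. The numbers come from the titles.

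Lengths and positions came from GENCODE M21 (mm10), 1 transcript a gene (principal, then shortest), for all 82 members; Rps20 has only a long one (3706 bases), which lowers its RPKM. Copies were sought with blastn 2.17.0 (95% identity, 80% coverage) among transcripts. No genome was used, so copies outside the annotation were not searched. Named members were the 3 lowest p in each direction of each comparison, genes of set roles and paralog pairs, and the 5 highest and lowest in level and in SD; some genes that this rule names are not reported here. Rpl14, Rpl37, Rpl23 and Rpl15 and their copies were named after their values were seen.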

Additional observations from a re-analysis of the deposited data

Results flagged for a closer look

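Groups of 4 libraries were searched for a library far from its fellows in the members named and in 4 measures of the whole library (member share, summed level, subunit ratio and Rn45s share). Of 83 groups, 7 held such a library, where chance gives about 1 in 20. Rn45s took 25.8% of the counts in homozygous replicate 2, against 0.126% to 0.786% in the other homozygous libraries. Rpl36al stood apart in both genotypes, at 49.98 CPM in heterozygous replicate 4 (33.5 to 34.6 CPM in the others) and at 45.8 CPM in homozygous replicate 2 (33.8 to 35.8 CPM in the others). In heterozygous libraries Rps4x was at 178 CPM in replicate 1 (218 to 224 CPM in the others), and Rps4l was at 63.0 CPM in the same library (52.7 to 53.2 CPM in the others). Rps27l was at 63.2 CPM in homozygous replicate 3 (51.7 to 53.4 CPM in the others). Rpl26 was at 0.0948 CPM in heterozygous replicate 3, which is its only count in the series, so that this group had to stand out and adds nothing to the comparison with chance. The causes were not tested.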

How the results depend on the processing

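No member passed the adjusted threshold in any comparison under any alternative run (with the replicate block in a fit of wild type and homozygous libraries alone, 39 of all genes did), but the sizes of the small shifts depended on single libraries. The median log2 fold change ran from 0.041 to 0.44 in homozygous and from 0.019 to 0.39 in heterozygous libraries relative to wild type. Between the mutant genotypes both the median (-0.059 to 0.13) and the share difference (-0.080 to 0.074 percentage points) turned their sign when single libraries were left out. The number of members at an unadjusted p under 0.05 in homozygous against wild type (3) was 1 with only these genotypes in the fit (2.99% of all genes), 1 with the replicate block over all 11 libraries and 5 when library set was added to the model, and it ranged from 0 to 15 when single libraries were left out. In heterozygous against wild type (0) it was 1 with the replicate block and ranged from 0 to 9, and in homozygous against heterozygous (0) from 0 to 2. Of the 18 fold changes of the members with the lowest p in each direction, 3 turned their sign when single libraries were left out. Rpl39 ranged from -0.78 to 0.27 in homozygous against wild type and was positive without wild type replicate 3. Rps27 in the heterozygous comparison with wild type ranged from -0.27 to 0.15, being positive without wild type replicate 3 (0.15) or heterozygous replicate 3 (0.011). Rpl36a ranged from -0.55 to 0.023 there and was positive without heterozygous replicate 3. The share difference of homozygous minus wild type, 0.092 percentage points, was 0.16 without Rn45s, an alternative chosen after seeing the data, and -0.014 within set 1 and 0.13 within set 2. It fell to 0.025, 0.028 and 0.040 without wild type replicate 2 or homozygous replicate 3 or 4, and was 0.16 and 0.18 without wild type replicate 3 or homozygous replicate 2. Leaving out libraries from the summed level was also chosen after seeing the data. The causes were not tested. The share without mitochondrially encoded genes could not be computed, since the table holds 0 such symbols. Rpl39l, Rpl3l, Rpl30 and Rpl26 had 1 to 85 counts over all libraries, which limits their precision.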

Other observations

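Rpl39, a small protein that lines the exit tunnel of the large subunit, and Rpl22l1, the paralog of Rpl22 outside the rule, were both highest in wild type replicate 3 and heterozygous replicate 2. Rpl39 stood at 23.6 and 21.4 CPM in these libraries and at 5.25 to 14.4 CPM in the other 9. Rpl22l1 stood at 18.2 and 14.7 CPM there and at 2.75 to 7.70 CPM elsewhere. Both genes were named after their values were seen.

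Rpl3l, the paralog of striated muscle, had 2 to 15 counts in a library, and its level was 0.160 to 1.21 CPM. The 3 libraries with the highest summed level of 6 skeletal muscle markers such as Acta1 and Ckm, at 1389, 636 and 458 CPM in heterozygous replicate 4, homozygous replicate 3 and heterozygous replicate 2, had 0.749, 0.880 and 0.941 CPM of Rpl3l. Homozygous replicate 2, next in marker sum at 337 CPM, had 0.436 CPM. The highest Rpl3l level, 1.21 CPM in wild type replicate 3, came with a marker sum of 12.8 CPM, and heterozygous replicate 1, at 12.2 CPM of markers, had 0.680 CPM.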
